A study of Arabidopsis thaliana with 6 samples.

Results

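The response common to loss of KYP and loss of CMT3 was measured by taking the 4 mutant arrays, 2 of kyp and 2 of cmt3, as 1 group against the 2 arrays of wild type Col-0, over all 30361 gene models on the array. These are all 6 arrays of the series. RNA came from young leaves of plants kept untreated in soil under long days until 4 weeks of age. Both mutants are given by gene name only: the labels name no allele and do not state if replicate arrays are independent plants. All p-values therefore reflect array-to-array spread that could be technical only. The values are RMA-normalized Cy3 intensities of 1-colour NimbleGen arrays, taken to log2, with 1 value per gene model from 1 to 3 probes.

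KYP (also SUVH4) is a histone methyltransferase that places methyl groups on lysine 9 of histone H3. CMT3 is a DNA methyltransferase that recognises this histone mark and methylates cytosines in the CHG context, and KYP in turn binds methylated DNA, so that the 2 marks maintain each other. In Arabidopsis this pair acts mainly on transposable elements: the retrotransposons (copia, gypsy and LINE), which move through an RNA copy, and the DNA transposons (CACTA, Mutator and hAT), which are moved by a transposase.

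The arrays had median log2 intensities between 9.89 and 9.96. The mean of the log2 values of 6 leaf markers was 14.94 to 15.02 in wild type and 14.93 to 14.94 in the mutants. RBCS1A, a small subunit gene of Rubisco, stood near the upper end of the intensity scale, while LHCB1.1, of the light-harvesting complex, read 9.73 to 10.28. The same mean was 6.36 to 6.54 in wild type and 6.33 to 6.501 in the mutants for root markers, 5.95 to 6.22 and 5.53 to 6.44 for seed markers, and 6.75 to 7.12 and 6.88 to 7.39 for flower markers. SCR, the root marker with the highest level, read 11.80 and 11.85 in wild type and 11.95 to 12.80 in the mutants, a difference of 0.56 that was not called (limma, adjusted p = 0.368). The flower marker SEP2 differed most, by 1.595, and was not called (limma, adjusted p = 0.44). It read 5.63 and 5.86 in wild type, 6.15 and 6.497 in kyp, and 7.67 and 9.06 in cmt3. All mutant arrays of SEP2 lay above wild type, with cmt3 highest. The flower markers AP3 and AG differed the other way, by -0.52 and -0.08. A match of tissue between cmt3 and wild type is therefore not shown for every marker. Of these markers, 5 of 7 for root, 3 of 6 for seed and 2 of 6 for flower had a wild type level in the lowest 25% of all models. From the image names, slide 1 held the wild type pair together with kyp replicate 1, while slide 2 held the cmt3 pair together with kyp replicate 2, so slide and group are partly confounded.

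CMT3 transcript had log2 intensities of 12.61 and 12.59 in wild type, 12.79 and 12.70 in kyp, and 10.94 and 10.97 in cmt3. Both cmt3 arrays lay below the other 4, and the kyp arrays lay slightly above wild type. The change from wild type in cmt3 was -1.65 ± 0.09 (SE; limma, 3 groups, adjusted p = 0.0159). KYP transcript read 10.24 and 10.19 in wild type, 10.04 and 9.91 in kyp, and 10.33 and 10.36 in cmt3. The kyp arrays were the lowest of the 6, but the difference from wild type of -0.24 ± 0.10 was not called (limma, 3 groups, adjusted p = 0.515). A transcript that is still made does not check the label of a mutant whose allele is not named.

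Across the genome, 58 gene models were higher in the mutants (0.191%) and 16 were lower (0.0527%), at a Benjamini-Hochberg adjusted p under 0.05 in limma. Among the 58, 31 were transposable element genes, which make up 8.12% of the array, 16 were pseudogenes of other kinds, 10 were protein-coding genes and 1 had no match in RefSeq. Their median rise was 3.48 on the log2 scale, 11.1-fold, with a range of 1.02 to 7.99. The 16 lower genes, 11 of them protein-coding, fell less, by a median of 3.39-fold. Of the 25477 protein-coding models on the array, 0.0393% were higher and 0.0432% lower, both under the shares of all models. Higher were 0.837% of the 1195 pseudogenes named in the files and 0.713% of the 842 named by RefSeq only. The median change over all models was 0.02.

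In all 74 called genes the mutant arrays did not overlap the wild type arrays. Over all models, 16.3% had all 4 mutant arrays above both wild type arrays and 13.6% had them below. Within slide 1, kyp replicate 1 can be set against both wild type arrays without a test: the median difference was 3.46 for the genes called higher and -1.79 for those called lower. Their sign there is fixed, since no mutant array of these genes overlapped wild type. Slide 2 holds no wild type array. With the slide as a block, which estimates the change from slide 1 alone, 6 of the 74 stayed called, all of them higher. The number of calls was 16 without wild type replicate 1, 24 without kyp replicate 2, 15 without cmt3 replicate 1 and 19 without cmt3 replicate 2. The scatter of mutant against wild type means shows where the called genes lie.

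**Figure D1:**
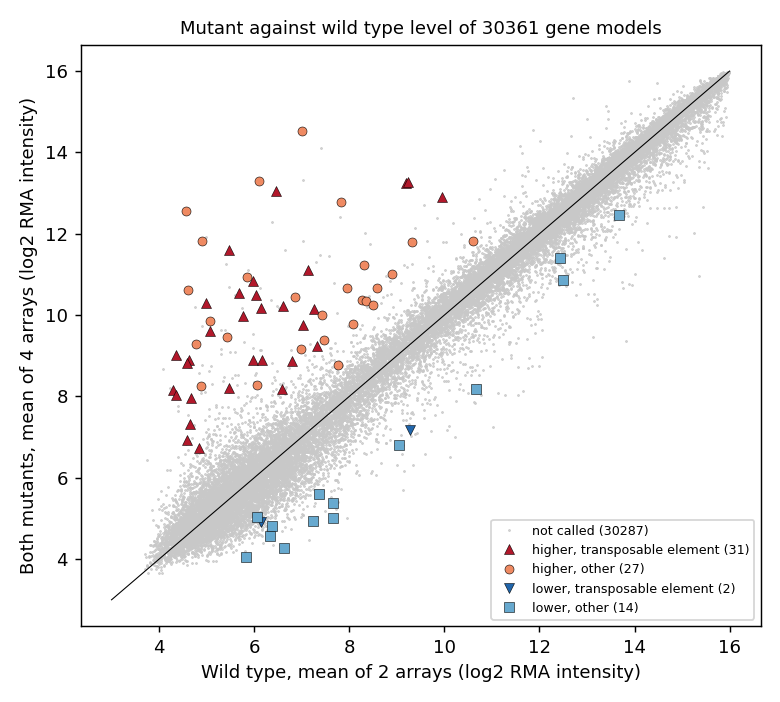
Mean log2 intensity of the 4 mutant arrays (vertical) against the mean of the 2 wild type arrays (horizontal) for 30361 gene models, with called genes coloured by direction and class and the line of equal level drawn. The 58 higher genes lie mostly at the left, where wild type intensity is low, and the 16 lower genes lie closer to the line.

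Many rises began near the bottom of the intensity scale: 30 of the 58 had a wild type mean in the lowest 25% of all models, at or under 6.20 on the log2 scale. The median level of the 58 was 6.15 in wild type and 10.16 in the mutants. That of the 16 lower genes was 7.51 in wild type and 5.20 in the mutants, the latter also under 6.20. A fold of so low an intensity can understate the change in transcript.

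The largest rise belonged to CYP76C8P, a cytochrome P450 pseudogene at chromosome 3:22540618-22543451 (coordinates as in the files, Release 6), which the files describe as overlapping a gene on the opposite strand. It read 4.47 and 4.67 in wild type, 13.41 and 13.00 in kyp, and 11.78 and 12.03 in cmt3. The mutant arrays lay far above wild type, with kyp above cmt3, and the change was 7.99 ± 0.51 or 254-fold (limma, adjusted p = 0.0102). Double-stranded cDNA was labelled, so transcripts of the 2 strands cannot be told apart here.

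The next 3 genes, without a named function in the files, rose more than any transposable element gene called, and their 2 mutant means differed by at most 0.44 on the log2 scale. AT5G26270 (chromosome 5:9206511-9207515) read 7.21 and 6.83 in wild type, 14.73 and 14.74 in kyp and 14.25 and 14.34 in cmt3, a change of 7.50 ± 0.21 (limma, adjusted p = 0.000754). AT3G54730 (chromosome 3:20270237-20271400) read 6.20 and 6.004 in wild type against 13.21, 13.08, 13.23 and 13.64 in the mutants, a change of 7.19 ± 0.18 (limma, adjusted p = 0.000608). AT2G16676 (chromosome 2:7237953-7238609) read 4.93 and 4.86 in wild type against 11.69, 12.03, 11.87 and 11.75, a change of 6.94 ± 0.13 (limma, adjusted p = 0.000318), the smallest p of all models. In each of the 3 the wild type pair and the 4 mutant arrays formed separate, narrow groups.

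AT2G40955, also without a function in the files, stood at chromosome 2:17100171-17102210, with the nearest transposable element gene model 244672 bp away. Its log2 intensity was 4.70 and 4.51 in wild type and between 10.42 and 10.78 in the 4 mutant arrays, a change of 6.002 ± 0.14. The remaining 7 of the 12 called other genes that rose most changed by 3.37 (AT5G41660) to 5.10 (AT2G13450). Between them lay AT2G19850 (4.93), AT1G63540 (4.78), AT5G15360 (4.52), AT4G04660, a pseudogene similar to a zinc finger gene (4.02), and AT2G05950 (3.58). Of the 27 higher genes that are not transposable elements, 17 are described in the files only as an unknown protein. The share of all such models with this description is not given here, so no excess is shown.

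QQS, an Arabidopsis orphan gene known to affect leaf starch and to vary in methylation between accessions, was among these 27. Its log2 intensity was 9.43 and 9.23 in wild type, 12.04 and 11.91 in kyp, and 11.56 and 11.69 in cmt3. The mutants were above wild type without overlap, by 2.47 ± 0.17 or 5.53-fold (limma, adjusted p = 0.013).

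**Figure D2:**
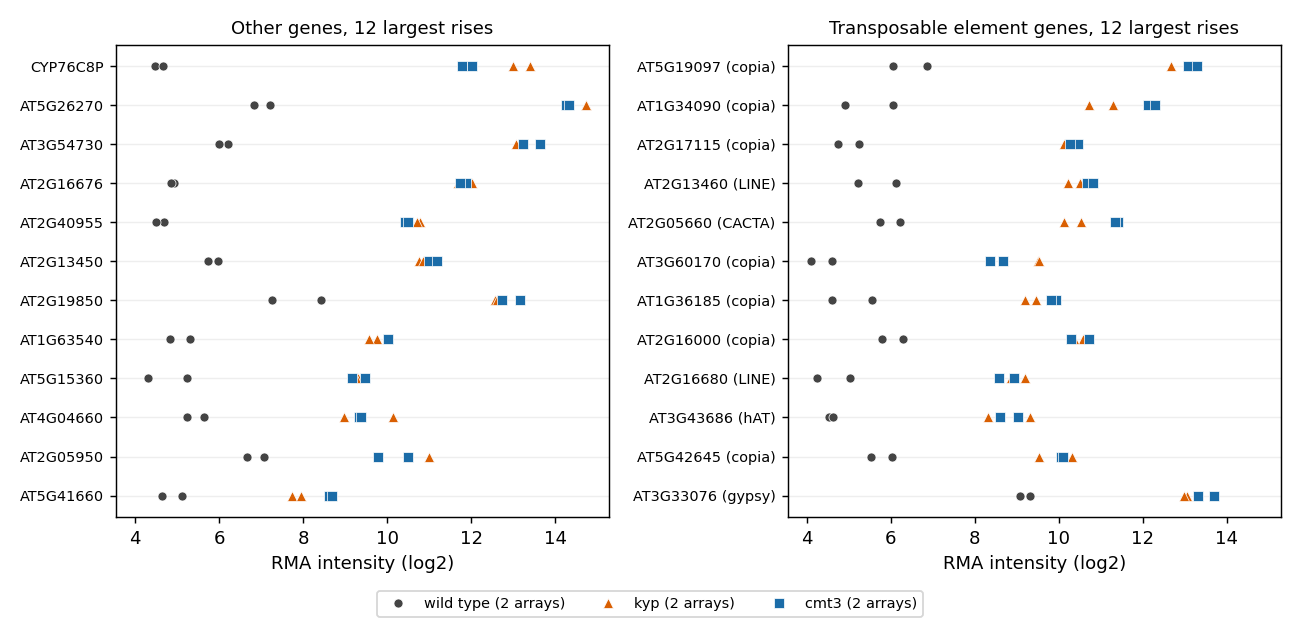
Log2 intensity in each of the 6 arrays (horizontal) for the called genes with the largest rises, 1 row a gene, ordered by size. The 12 other genes are at the left and the 12 transposable element genes at the right. Wild type points lie left of all mutant points in every row, and kyp and cmt3 points lie close together or interleave in most rows.

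Among the retrotransposons, copia elements gave 13 of the 31 higher transposable element genes, or 2.69% of the 483 copia models. Of those called, AT5G19097 (chromosome 5:6403279-6407610) rose most. It read 6.87 and 6.04 in wild type, 13.17 and 12.66 in kyp and 13.07 and 13.28 in cmt3, a change of 6.59 ± 0.29 or 96.4-fold (limma, adjusted p = 0.00355). The mutant arrays did not separate by genotype. AT1G34090 read 4.91 and 6.05 in wild type, 11.29 and 10.72 in kyp and 12.11 and 12.28 in cmt3, a change of 6.12 ± 0.56. AT2G17115 rose by 5.31 ± 0.18, AT3G60170 by 4.66 ± 0.41, AT1G36185 by 4.54 ± 0.34, AT2G16000 by 4.45 ± 0.20 and AT5G42645 by 4.22 ± 0.26. The other 6 called copia genes rose by 2.07 to 3.85. AT5G27925, also copia, differed by 6.69 ± 0.88 but was not called (limma, adjusted p = 0.0987). Its wild type arrays stood apart, at 9.04 and 5.79.

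LINE elements, retrotransposons without long terminal repeats, gave 4 higher genes (1.32% of 303). Among these 4 the largest rises were those of AT2G13460 (4.87 ± 0.30) and AT2G16680 (4.25 ± 0.27). Gypsy elements, which are concentrated around the centromeres in Arabidopsis, gave 4 of 916 (0.437%). Athila, the most numerous gypsy family here with 543 models, gave 1 (0.184%).

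Among the called gypsy genes, the largest rises were in AT3G33076 on chromosome 3 and AT5G28335 on chromosome 5. AT2G05040 rose more, by 6.93 ± 0.78, but was not called (limma, adjusted p = 0.0615). AT3G33076 read 9.30 and 9.08 in wild type, 13.05 and 12.98 in kyp and 13.31 and 13.69 in cmt3, a change of 4.06 ± 0.23 (limma, adjusted p = 0.00815). AT5G28335 differed from it by at most 0.07 on the log2 scale in any array. Probe sequences were not used here and binding of a probe to both copies was not tested, so which copy was transcribed is uncertain.

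Among the DNA transposons, CACTA elements gave 6 of 341 (1.76%), led by AT2G05660 (chromosome 2:2108118-2114696). It read 6.21 and 5.74 in wild type, 10.52 and 10.11 in kyp and 11.40 and 11.34 in cmt3, with cmt3 above kyp and both above wild type, and rose by 4.87 ± 0.43. Mutator-like elements gave 3 of 278 (1.08%), of which AT1G78095 rose most (4.03 ± 0.24). AtMu1 (AT4G08680), a Mutator-like element long used as a reporter of silencing, read 6.40 and 6.80 in wild type, 10.34 and 10.05 in kyp and 10.53 and 10.004 in cmt3. It rose by 3.63 ± 0.21 (limma, adjusted p = 0.00824). The only hAT gene called of 78, AT3G43686, rose by 4.24 ± 0.29. No test was made between superfamilies.

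A rule of size that uses no error was applied beside the test. At least 4-fold above both wild type arrays in all 4 mutant arrays were 77 models (0.254%), of which 52 (67.5%) were transposable element genes. At least 4-fold below were 4 models (0.0132%), 1 of them a transposable element gene. By this rule 4.11% of CACTA, 3.93% of copia, 3.30% of LINE, 2.56% of hAT, 1.08% of Mutator and 0.437% of gypsy models were higher, against 0.0707% of protein-coding genes. The bar chart of classes sets both measures side by side.

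**Figure D3:**
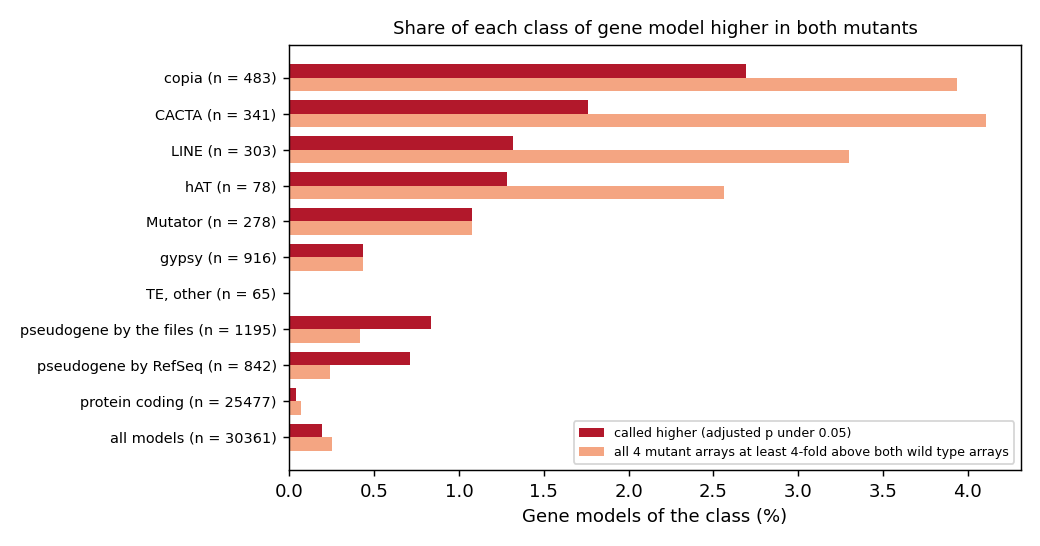
Share of the gene models of each class (percent, horizontal) called higher in both mutants together and share with all 4 mutant arrays at least 4-fold above both wild type arrays. Copia and CACTA have the largest shares by either measure, and gypsy has the smallest of the named superfamilies.

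The transposable element genes called higher lay largely outside the windows richest in such elements. In the 16 of 121 windows of 1 Mb where at least 30% of gene models were transposable elements, 0.724% of the 1519 transposable element models were higher. In the other windows it was 2.12% of 945. Other gene models showed the reverse order: 0.880% of 1705 were higher in the rich windows and 0.0461% of 26031 elsewhere. Where at least 50% of a window was transposable elements, 1.51% of the other models were higher. These shares are descriptions without a test.

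Of the 27 higher genes that are not transposable elements, 17 lay within 5000 bp of a transposable element gene model, against 10.9% of all such models. Their median distance was 2181 bp, and that of all was 82758 bp. Within the rich windows, 13 were pseudogenes or, in the case of AT3G44040, had no match in RefSeq, with 6 of the 13 on chromosome 5, among them AT5G31787 and AT5G32515. The changes of the 13 ran from 1.02 to 3.58 (AT2G05950) with a median of 2.08. By chromosome, 17 of the 58 were on chromosome 2 (0.341% of its models) and 17 on chromosome 5 (0.247%). Chromosome 3 held 11 (0.180%), chromosome 1 held 7 (0.0927%) and chromosome 4 held 6 (0.128%). Within 3 Mb of KYP 0.181% of models were higher, and within 3 Mb of CMT3 0.0640%, against 0.191% of all models.

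The genes that fell were of mixed kinds. Among called genes, AT3G46700, a UDP-glycosyltransferase gene, fell most. It read 7.92 and 7.41 in wild type, 5.34 and 4.85 in kyp and 4.65 and 5.24 in cmt3, a change of -2.65 ± 0.26 or 6.27-fold (limma, adjusted p = 0.04). VSP1, a vegetative storage protein and acid phosphatase induced by jasmonate, read 10.90 and 10.42 in wild type, 7.98 and 8.24 in kyp and 8.45 and 8.11 in cmt3. Its change was -2.47 ± 0.19 (limma, adjusted p = 0.0198), with no overlap between wild type and mutants.

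MAF5, a MADS-box gene of the FLC family of flowering repressors, read 9.002 and 9.09 in wild type, 6.57 and 7.12 in kyp and 6.65 and 6.93 in cmt3. It fell by 2.23 on the log2 scale (SE 0.18; limma, adjusted p = 0.0236), and the 2 mutants overlapped each other. Its neighbour and relative MAF4, 1409 bp away, read 8.27 and 8.66 in wild type and 6.95 to 7.64 in the mutants, a difference of -1.28 ± 0.24 that was not called (limma, adjusted p = 0.183).

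RLP19, a receptor-like protein gene, had the strongest signal among the 12 largest falls of called genes. It read 12.60 and 12.39 in wild type against 10.74, 10.83, 10.89 and 10.996 in the mutants, a change of -1.63 ± 0.12 (limma, adjusted p = 0.0148). The lower group also held AT5G22990, which encodes a zinc ion binding transcription factor per the files (-1.77 ± 0.12), the pseudogene of a myrosinase-associated protein AT1G18120 (-1.76 ± 0.16), EGY3, related to chloroplast membrane metalloproteases (-1.22), and the polygalacturonase gene AT5G44830 (-1.03). Without a function in the files were AT5G38950 (-2.34), AT3G29763 (-1.76), AT2G25370 (-1.55) and AT5G54585 (-1.03), and AT3G33575 (-2.32) and AT2G13480 (-2.28) are pseudogenes.

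Only 2 transposable element genes were called lower, both copia: AT2G05930, which read 9.29 and 9.25 in wild type and 6.97 to 7.39 in the mutants (-2.09 ± 0.14), and AT2G07420 (-1.21). ATCOPIA4 (AT4G16870), a copia element next to the RPP5 disease resistance cluster, had a larger but less even difference. It read 15.31 and 15.41 in wild type, 11.86 and 12.59 in kyp and 9.83 and 9.54 in cmt3. All 4 mutant arrays were at least 4-fold lower, as in 0.0132% of all models, with cmt3 below kyp. The pooled change of -4.41 ± 0.97 was not called (limma, adjusted p = 0.22).

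**Figure D4:**
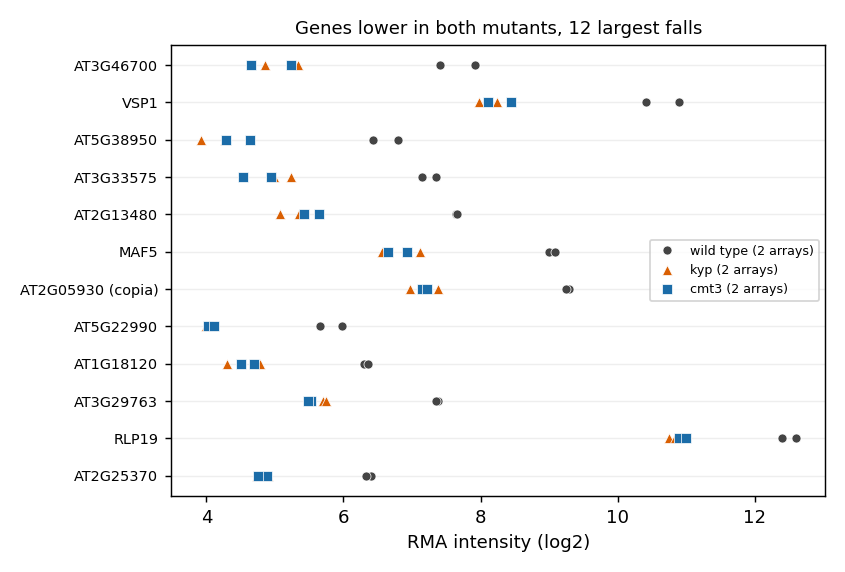
Log2 intensity in each of the 6 arrays (horizontal) for the 12 called genes with the largest falls, ordered by size. The wild type points lie right of all mutant points in every row, from 5.66 on the log2 scale for AT5G22990 to 12.60 for RLP19.

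Some genes next to a called gene also differed between mutants and wild type. Of the 92 immediate neighbours that lay within 2000 bp of a called gene, 11 (11.96%) had all 4 mutant arrays at least 2-fold above or below both wild type arrays, against 0.833% of all models. They form 8 pairs, 6 in the same direction and 2 in opposite directions. The count includes neighbours that were called themselves, and a pair of 2 called genes enters it from each side. Such pairs were AT2G16676 with AT2G16680, AT2G13450 with AT2G13460, and AT2G15070 with RLP19. The share is therefore raised by the genes that defined the set.

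AT2G16676 and the LINE element AT2G16680 lay 765 bp apart and both rose, as did AT2G13450 and the LINE element AT2G13460, which lay 383 bp apart. Beside CYP76C8P, at 129 bp, AT3G60950 read 7.69 and 7.46 in wild type and 10.64 to 12.53 in the mutants, with kyp above cmt3 as in the pseudogene, but was not called (3.88 ± 0.58; limma, adjusted p = 0.124). Beside the CACTA gene AT2G15070, which rose by 2.92, the CACTA gene AT2G15060 differed by 2.76 ± 0.31 (limma, adjusted p = 0.0605).

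The opposite pairs each joined a raised transposable element to a lower gene. RLP19 lay 1306 bp from AT2G15070, on the side away from AT2G15060. AT5G19100, 634 bp from the raised copia gene AT5G19097, read 10.88 and 9.56 in wild type, 7.37 and 7.24 in kyp and 6.68 and 6.76 in cmt3. All 4 mutant arrays lay below wild type, but with the 2 wild type arrays apart the change of -3.21 ± 0.42 was not called (limma, adjusted p = 0.0987). Next to the raised QQS, at 441 bp, the CACTA gene AT3G30722 read 5.14 and 5.25 in wild type and 3.72 to 4.29 in the mutants, also not called (-1.23; limma, adjusted p = 0.14).

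**Figure D5:**
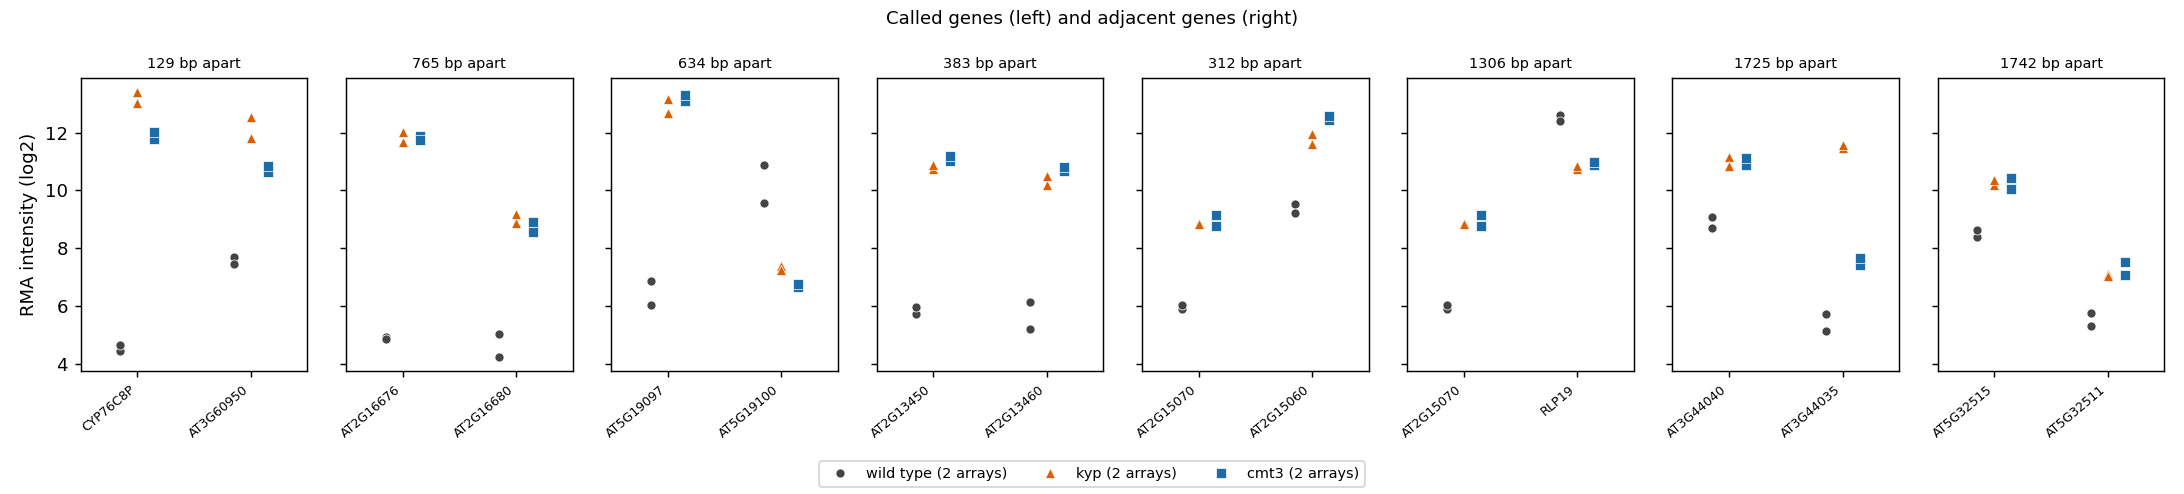
Log2 intensity (vertical) in the 6 arrays for the 8 pairs of a called gene (left in each panel) and an adjacent gene within 2000 bp whose mutant arrays all lay at least 2-fold from both wild type arrays (right). In 6 panels both genes are higher in the mutants, and in the panels of AT5G19097 with AT5G19100 and of AT2G15070 with RLP19 the second gene is lower.

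The mutants were close to each other in most called genes. The median absolute difference between kyp and cmt3 was 0.16 on the log2 scale over the 74 called genes and 0.21 over all models. Because the 2 mutants were 1 group, a difference between them counted as error, so the calls favour genes that changed equally. No called gene passed the test of kyp against cmt3, which called 0.0296% of all models. At an unadjusted p under 0.05 in limma it had 8 of the 58 higher and 0 of the 16 lower genes, and the smallest adjusted p was 0.285.

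Among called genes, the widest differences were in CYP76C8P, where kyp exceeded cmt3 by 1.302 ± 0.19, and in the copia gene AT3G60170, by 1.004 ± 0.22. In AT1G34090 and AT2G05660 cmt3 exceeded kyp, with differences of -1.19 ± 0.44 and -1.05 ± 0.23. On their own against wild type, 22 of the 58 higher genes were called in kyp and 49 in cmt3, and 2 and 13 of the 16 lower genes, where kyp called 0.105% and cmt3 0.741% of all models. Both comparisons use the same wild type arrays, and the called genes were selected on these same mutant arrays. High shares among them follow from that selection and give no separate support.

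Models with large but unequal differences were often not called in the pooled comparison. Of the 77 models at least 4-fold higher in every mutant array, 34 were not called. Their median absolute difference between mutants was 1.65, against 0.27 for the 43 called, and cmt3 was the higher in 30 of them. The gypsy gene AT2G05040 read 4.77 and 5.22 in wild type, 10.82 and 10.97 in kyp and 12.81 and 13.08 in cmt3. Each genotype formed its own level, and the pooled change of 6.93 ± 0.78 gave an adjusted p of 0.0615 in limma. AT3G32966, a pseudogene, read 4.68 and 4.83 in wild type, 8.40 and 8.30 in kyp and 11.98 and 12.13 in cmt3, in the same order.

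When the 3 genotypes were given their own means and the average of the mutants was tested, 149 models were called, 117 higher and 32 lower, with 66 of the 74 among them. Of the 83 called only that way, 65 were higher, 38 of these transposable element genes, and cmt3 was the larger change in 77.

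Genes of the silencing machinery did not pass the test. No member was called among 9 DNA methyltransferases and maintenance factors (median change -0.01, and 0.08 within slide 1), 12 H3K9 methyltransferases and IBM1 (0.00), 4 DNA demethylases (-0.06), 16 factors of the RNA-directed pathway (0.09) and 8 silencing factors of other kinds (0.15). At an unadjusted p under 0.05 limma had 3, 2, 1, 1 and 1 of these, where 14.2% of all models passed. IBM1, the H3K9 demethylase that protects genes from this pathway, read 12.42 and 12.26 in wild type and 11.47 to 11.73 in the mutants, a difference of -0.69 ± 0.12 (limma, adjusted p = 0.159). All 4 mutant arrays lay below both wild type arrays. The members with the smallest p in the other lists were VIM3 (0.36), a factor that maintains DNA methylation, DML2 (0.32), a demethylase, DMS3 (0.35), of the RNA-directed pathway, and FAS1 (0.51), a chromatin assembly subunit.

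Of 15 established targets of silencing by DNA methylation, 2 were higher (QQS and AtMu1) and 0 lower, and the median change was -0.16. Of all models, 0.191% were higher and 0.0527% lower. At an unadjusted p under 0.05 limma had 6 of the 15, where 14.2% of all models passed. The list was chosen with earlier results of these data known, so its calls give no separate support. SDC, which encodes an F-box protein and is normally kept silent outside the seed, read 8.002 and 7.42 in wild type, 8.61 and 8.43 in kyp and 10.03 and 10.19 in cmt3. All mutant arrays were above wild type, with cmt3 highest, and the pooled difference of 1.60 ± 0.62 was not called (limma, adjusted p = 0.339). FWA, a homeobox gene silenced in leaves, differed by -0.70.

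Heat shock and jasmonate genes were lower in most mutant arrays without passing the test, apart from VSP1. In the heat shock list 11 of 12 changes were negative, with a median of -2.35, and 0 were called. An unadjusted limma p under 0.05 was found for 7 of the 12, against 14.2% of all models. The median was -1.31 in kyp and -2.93 in cmt3, and -0.96 within slide 1. HSP70, a cytosolic chaperone, read 15.58 and 15.32 in wild type, 14.34 and 13.52 in kyp and 12.20 and 10.58 in cmt3. Each mutant array lay below wild type, with both cmt3 arrays below both kyp arrays. HSP23.6, a small heat shock protein with the smallest p of the list, differed by -2.48 ± 0.35 (limma, adjusted p = 0.108).

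In the jasmonate and wounding list all 16 changes were negative, with a median of -0.83. VSP1 was the 1 member called, where 0.0527% of all models were called lower. An unadjusted limma p under 0.05 was found for 3 of the 16, against 14.2% of all models. The median was -0.35 in kyp, -1.43 in cmt3 and -0.22 within slide 1. JAZ10, a repressor of jasmonate signalling, read 13.99 and 13.50 in wild type, 12.80 and 12.15 in kyp and 10.18 and 8.09 in cmt3, and the pooled difference of -2.94 ± 1.37 was not called (limma, adjusted p = 0.402). Both cmt3 arrays were on slide 2 and both wild type arrays on slide 1, so for cmt3 slide and genotype cannot be told apart.

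The remaining lists had no called member in limma. At an unadjusted p under 0.05 limma had 5 of the 15 cell division, 6 of the 14 cold and drought and 3 of the 15 circadian clock genes. It also had 3 of the 19 glucosinolate genes and 0 to 2 members of each other list, where 14.2% of all models passed. For salicylic acid and defence the median was 0.13 (0.34 in kyp and -0.14 in cmt3). Medians were 0.17 for cell division (14 of 15 changes positive), 0.27 for senescence, 0.05 for the circadian clock and 0.04 for flowering. They were -0.01 for photosynthesis, 0.00 for root markers, -0.03 for reference genes and -0.12 for cold and drought. Flavonoid synthesis stood at -0.19, glucosinolate synthesis at -0.26 (15 of 19 negative) and seed storage at -0.35. Within slide 1 the median turned to 0.27 for seed storage, -0.21 for flowering and -0.03 for the circadian clock, and the seed storage median was -0.06 in kyp and -0.92 in cmt3. The members with the smallest p differed in these lists by 0.47 (the cyclin CYCB1;2), 0.89 (WRKY70, a defence regulator), 0.56 (CHS, chalcone synthase), 0.74 (MYB28, a glucosinolate regulator), -0.52 (KIN2, a cold-induced gene) and -1.19 (FUL, a floral MADS-box gene).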

How the data were processed

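The authors deposited RMA-normalized intensities on a linear scale, per the labels. The settings of RMA, the scanner and the software are not stated in the sources available for this work. The table of the whole series holds the same numbers (0 values differ), and a column of standard errors was not used. Intensities ranged from 10.6 to 64963, without detection or background values. Precision is limited by the number of arrays.

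Intensities were taken to log2 and tested in limma 3.58.1 under R 4.3.3 (functions lmFit and eBayes, default settings), 4 mutant against 2 wild type arrays, with 4 residual and 1.47 prior degrees of freedom. A call needed an adjusted p under 0.05 (Benjamini-Hochberg, 30361 models, no filter). Errors are limma's standard errors. A fit of 3 groups gave each mutant's values. The test was checked on simulated data with known changes. These values were drawn independently, with the same shift in all 4 mutant arrays and no slide effect. The check therefore does not cover the slides or unequal changes in the 2 mutants.

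Transposable element genes (2464) and superfamilies were read from the files' descriptions. Symbols came by locus from RefSeq TAIR10.1, which matched 29976 loci and gave the pseudogene class where the files gave none; no coordinate of it was used. Members of 20 gene lists (250 of 252 measured), and the comparison, were chosen with earlier results of these data known. The rule for named genes took both targeted genes. Among called genes it took the 12 largest rises of transposable elements, the 12 of all else and the 12 largest falls. It also took the leading called gene of each superfamily, and up to 4 called members of each list or else the one with the smallest p. The 5 called genes that differed most between mutants each way were added. Other genes were chosen after their values were seen. Alternatives were another moderation, normalization, filter, threshold, slide or replicate block, and each array left out. Same-numbered arrays did not deviate together (r = -0.12, 0.00 and -0.04).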

Additional observations from a re-analysis of the deposited data

Results flagged for a closer look

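In AT1G47650, a copia gene called higher in the mutants by 3.85 ± 0.38, 1 mutant array stood apart from the other three: cmt3 replicate 2 read 9.0001, against 7.93, 7.72 and 7.93 in cmt3 replicate 1 and in kyp. The gap was 0.834 of the range of the 4 mutant arrays, above Dixon's critical value at 95% for a group of this size. Among the 61 named genes that were examined in this way it was 1 case, and chance gives about 1 in 20.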

How the results depend on the processing

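The number of calls depended on the setting; the sign of the 74 genes did not turn, which their non-overlapping arrays already fix for most settings. With 3 genotype groups in 1 fit and the mean of the mutants tested there were 149 calls, 117 higher (67 transposable element genes) and 32 lower (4), with 48 in windows rich in transposable elements. The slide block left 6 calls, 6 higher (1 transposable element gene, 1 in a rich window), 0 lower and 0 list members; it kept AT2G16676, AT2G40955, AT5G26270, AT3G54730, AT2G13450 and AT2G05240, and 2130 models had an unadjusted limma p under 0.05. The replicate block, whose numbers do not pair the arrays, left 35 calls, 31 higher (16 transposable element genes) and 4 lower (1), with 1 list member and 10 in rich windows. An intensity trend gave 25 lower genes, and leaving out the lowest 25% of genes gave 10, 1 of them a transposable element. At an adjusted p under 0.10 there were 126 calls, 39 lower, with 47 higher and 5 lower transposable element genes. Called in kyp and also in cmt3 were 31 genes, 29 higher (14 transposable element genes) and 2 lower (0), with 1 list member and 9 in rich windows.

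Leaving out each array in turn gave 15 to 79 calls, 15 to 72 higher and 0 to 17 lower, with 7 to 20 higher and 0 to 1 lower transposable element genes, 0 to 2 list members and 1 to 17 calls in rich windows. The 79 calls without wild type replicate 2 hold 32 of the 74. In the fits without a wild type array the other one is assumed to vary like the mutants. Robust moderation, quantile normalization again and centring on array medians gave 62 to 78 calls. Among genes outside the calls, KYP ranged from -0.1221 to 0.0272 over the arrays left out, turning positive without kyp replicate 2, and CMT3 to 0.19 with the slide as a block and within slide 1, which holds no cmt3 array. The value table of the series equals the per-array values and so gave no separate alternative, and slide 2 without wild type gave no value. Detection cannot be judged without background values.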

Other observations

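Genes encoded in the organelles were slightly lower in the mutants as a class. The 94 mitochondrial gene models had a median log2 change of -0.29, and in 41.5% all 4 mutant arrays lay below both wild type arrays, against 13.6% of all models. The 67 chloroplast gene models had a median of -0.12, with 55.2% below and 1.49% above both wild type arrays. Their median wild type level was 15.75, near the upper end of the intensity scale. No model of either class was called in limma. No test was made of the class.

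Gene models summarised from 2 probes were called higher more often (0.262% of 19073) than those from 3 probes (0.0709% of 11283), and 31.8% of the first and 13.5% of the second had a wild type level in the lowest 25%. Just outside the threshold lay the hAT gene AT2G15940 (1.88 ± 0.20; limma, adjusted p = 0.0516), and just inside it the pseudogene AT4G05640 (1.02 ± 0.10; limma, adjusted p = 0.0469).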
